A study of Oryza sativa Indica Group with 6 samples.

Results

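The genes described here are 10 rice MADS-box genes of floral organ identity, *MADS1*, *MADS2*, *MADS3*, *MADS4*, *MADS5*, *MADS6*, *MADS7*, *MADS8*, *MADS16* and *MADS58*. They were chosen by name: each probe set annotated to a gene by symbol or synonym was collected, and the one with the highest mean signal stood for the gene. Each of the 10 genes had 1 probe set, and they are 10 of the 17905 genes for which the array had a probe set with a single gene annotation. The study hybridized total RNA of *sd37* and wild type seedlings to Affymetrix arrays of the rice genome, and each genotype had 3 biological replicates on 1 array each. *sd37* is a spontaneous semi-dwarf mutant whose recessive point mutation changes an amino acid of the cytochrome P450 CYP96B4. The wild type is the indica cultivar 3037 in which that mutant arose, so both groups share one genetic background. Seedlings of both genotypes were 2 weeks old. For work on young seedlings, the study's methods describe germination in sterile water and growth on MS medium in a phytotron under long days. Its array methods do not repeat these conditions and name no further treatment. The sources used here do not say how many plants entered 1 RNA sample or whether equal replicate numbers mark one harvest. The labels give the tissue as seedling, while notes to the study's gene lists speak of apices.

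MADS-box genes encode transcription factors that bind DNA as dimers and act in flowers as larger complexes. In the ABCDE scheme of flower development, B-class genes specify lodicules (the grass counterpart of petals) and stamens, C-class genes specify stamens and carpels and end the floral meristem, and E-class proteins join the others in complexes that give each whorl its organ. In rice most of these genes are known from the spikelet, the unit of the panicle that bears the floret, and a seedling before the floral transition carries no floret. Related MADS-box genes of the AP1/FUL, SVP and SOC1 types act earlier, in leaves, shoot apices and inflorescence meristems.

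Replicate 1 of both genotypes stood apart from replicates 2 and 3. The array median over the 57258 probe sets that are not controls was 56.2, 34.3 and 34.1 in *sd37* replicates 1, 2 and 3, and 51.0, 33.8 and 32.3 in the wild type replicates. Signals are linear intensities on an arbitrary scale, and precision is limited by how few arrays there are. Between 35.3% and 38.8% of the probe sets reached a signal of 100 on an array. Across all probe sets the median log2 difference of replicates 2 and 3 from replicate 1 was -0.39, and the median log2 difference of *sd37* from wild type was 0.024. Batch records were not used here, so what separates replicate 1 from the others was not tested.

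Most of the 10 genes gave a low signal. The file holds no detection calls, so a signal under the median of its own array was taken as near background. By this limit *MADS6*, *MADS7* and *MADS8* were near background on all 6 arrays, 3 of 10 genes beside 33.1% of all probe sets. *MADS5* was under the median on 4 arrays, and *MADS3*, *MADS4* and *MADS58* were each under it on 2. *MADS1* was under the median on 1 array, the wild type array of replicate 1, and *MADS2* and *MADS16* were above it everywhere. A signal of 100 was reached on any array by 3 of 10 genes, *MADS1*, *MADS2* and *MADS16*, whereas 44.8% of all probe sets reached it. The array also carries reporter probe sets for genes that plants lack, whose 95th percentile was 91.5, 34.7 and 44.5 in *sd37* replicates 1, 2 and 3 and 83.3, 40.8 and 40.4 in the wild type replicates. Against that second limit the same number of genes, 3, lay under it on every array. RNA came from whole samples, so fewer cells of a type and less RNA per cell cannot be told apart in any of these signals.

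**Figure D1:**
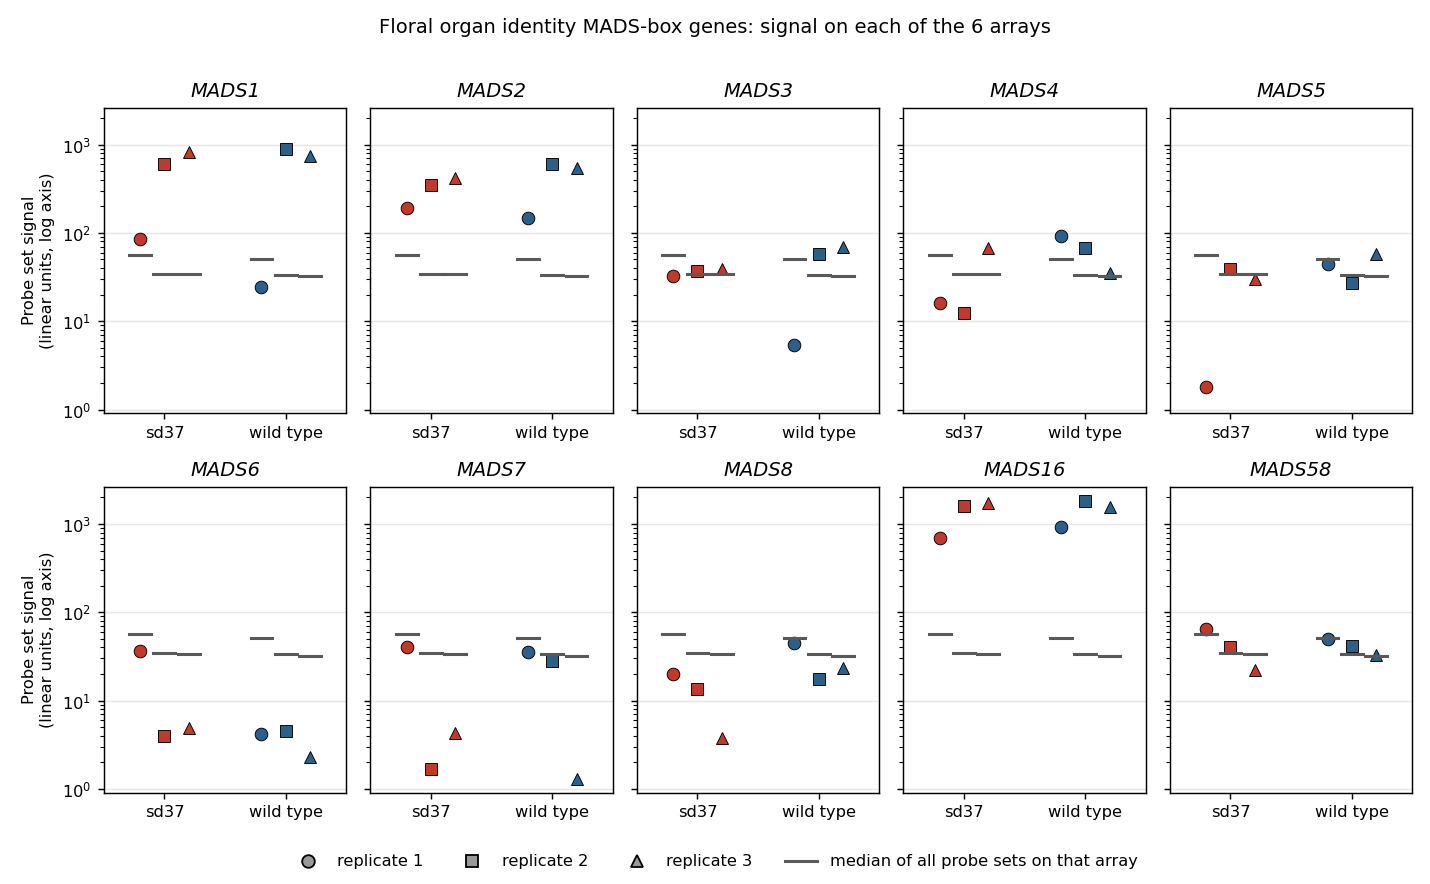
Signal of each of the 10 genes (vertical log axis, arbitrary units) on the 3 *sd37* arrays, left, and the 3 wild type arrays, right, with circles for replicate 1, squares for replicate 2 and triangles for replicate 3. Grey bars mark the median of each array, and *MADS1*, *MADS2* and *MADS16* lie far above them in replicates 2 and 3, whereas *MADS6*, *MADS7* and *MADS8* never exceed them.

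The E-class genes of rice are of the SEPALLATA type. *MADS1* (*LEAFY HULL STERILE1*), which specifies lemma and palea and the determinacy of the floret, had signals of 85.6, 595.7 and 828.8 in *sd37* replicates 1, 2 and 3, against 24.4, 892.9 and 752.3 in the wild type replicates. Both replicate 1 arrays were low and the 4 other arrays high in either genotype, so the 2 genotypes overlapped. On the replicate 1 arrays *MADS1* was also under the reporter limit, and the share of probe sets with a lower signal was 58.6%, 79.4% and 82.7% in *sd37* and 36.1%, 83.1% and 81.6% in wild type. *MADS5*, which acts beside *MADS1* in the spikelet, had signals of 1.8, 39.1 and 29.8 in *sd37*, against 43.9, 27.3 and 57.7 in wild type. The low value of *sd37* replicate 1 was matched by no wild type array, and the other 5 arrays overlapped.

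*MADS7* and *MADS8* are the SEP3-like pair, needed together for the identity of the inner floret organs. *MADS7* gave 40.9, 1.7 and 4.3 in *sd37* and 35.7, 28.4 and 1.3 in wild type. *MADS8* gave 20.1, 13.5 and 3.8 in *sd37* and 45.1, 17.4 and 23.5 in wild type. Each value of the pair was under the median of its array. *MADS6*, an AGL6-like gene with a role in floral organs and the floral meristem, had 36.6, 4.0 and 4.9 in *sd37* and 4.2, 4.5 and 2.3 in wild type. Its *sd37* replicate 1 array was high and the other 5 lay close together near the low end of the scale.

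The B-class genes comprise one AP3 type, *MADS16* (*SUPERWOMAN1*), and a pair of PI type, *MADS2* and *MADS4*, whose proteins form dimers with MADS16. *MADS16* gave 687.7, 1605.1 and 1730.2 in *sd37*, against 932.7, 1828.6 and 1546.7 in wild type. Replicate 1 was the lowest array of each genotype, and the signal was above those of 81.5% to 89.7% of the probe sets of its array. *MADS2*, with a known role in lodicules, gave 193.8, 346.6 and 419.6 in *sd37*, against 146.7, 601.0 and 536.3 in wild type. It too was lowest in replicate 1 of each genotype, and its signal was above those of 66.8% to 79.4% of the probe sets. *MADS4*, which acts with *MADS2* in lodicules and stamens, gave 15.9, 12.4 and 67.1 in *sd37* and 91.7, 66.8 and 35.6 in wild type, with no shared order of the replicates in the genotypes.

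The C-class genes are *MADS3*, which acts chiefly in stamen identity, and *MADS58*, which acts chiefly in floral meristem determinacy. *MADS3* gave 32.6, 36.7 and 39.5 in *sd37*, against 5.4, 58.1 and 69.1 in wild type. It was under the array median in replicate 1 of both genotypes and above it on the 4 other arrays. *MADS58* gave 64.6, 40.6 and 22.4 in *sd37* and 49.5, 41.1 and 32.4 in wild type. Replicate 1 was its highest array in each genotype, though close to the array median.

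By replicate number, 3 of the 10 genes were called higher in replicates 2 and 3 than in replicate 1, and none was called lower. These were the E-class gene *MADS1* and the B-class genes *MADS16* and *MADS2*, and they are also the 3 genes that reached a signal of 100. Genes were called at an adjusted p under 0.05 (limma, Benjamini-Hochberg over all probe sets) and a change of at least 1.5-fold. Of all probe sets 19.2% were called, 9.85% higher in replicates 2 and 3 and 9.38% lower there. These shares were 10.4% and 7.62% after quantile normalization, and 23.3% and 3.86% when each array was scaled to one median. Among the probe sets whose mean signal was at or above the median, 19.1% were called higher. The split was itself chosen with earlier results of these data known, and the members are not independent of one another.

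*MADS1* averaged 759 in replicates 2 and 3 and 45.7 in replicate 1 (geometric means, n = 4 and n = 2 arrays), a log2 difference of 4.05 ± 0.40 (SE) at an adjusted p of 0.000154 in limma. Since both replicate 1 arrays of *MADS1* lay under the reporter limit, that difference is set against background, and with the limit in their place the signal was at least 8.70-fold higher in replicates 2 and 3. *MADS2* averaged 465 in replicates 2 and 3 and 169 in replicate 1, a log2 difference of 1.46 ± 0.24 (adjusted p = 0.00273, limma). *MADS16* averaged 1674 in replicates 2 and 3 and 801 in replicate 1, a log2 difference of 1.06 ± 0.14 (adjusted p = 0.000857, limma). In all 3 genes each array of replicates 2 and 3 lay above both arrays of replicate 1. The log2 difference within *sd37* and within wild type was 3.04 and 5.07 for *MADS1*, 0.98 and 1.95 for *MADS2*, and 1.28 and 0.85 for *MADS16*. After quantile normalization the 3 values were 4.37, 1.48 and 0.95, and all 3 calls were kept; they were also kept when each array was scaled to one median. Without an intensity trend in the variance, *MADS2* and *MADS16* no longer passed (adjusted p = 0.0671 and 0.0659 in limma), whereas *MADS1* did (0.0354).

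**Figure D2:**
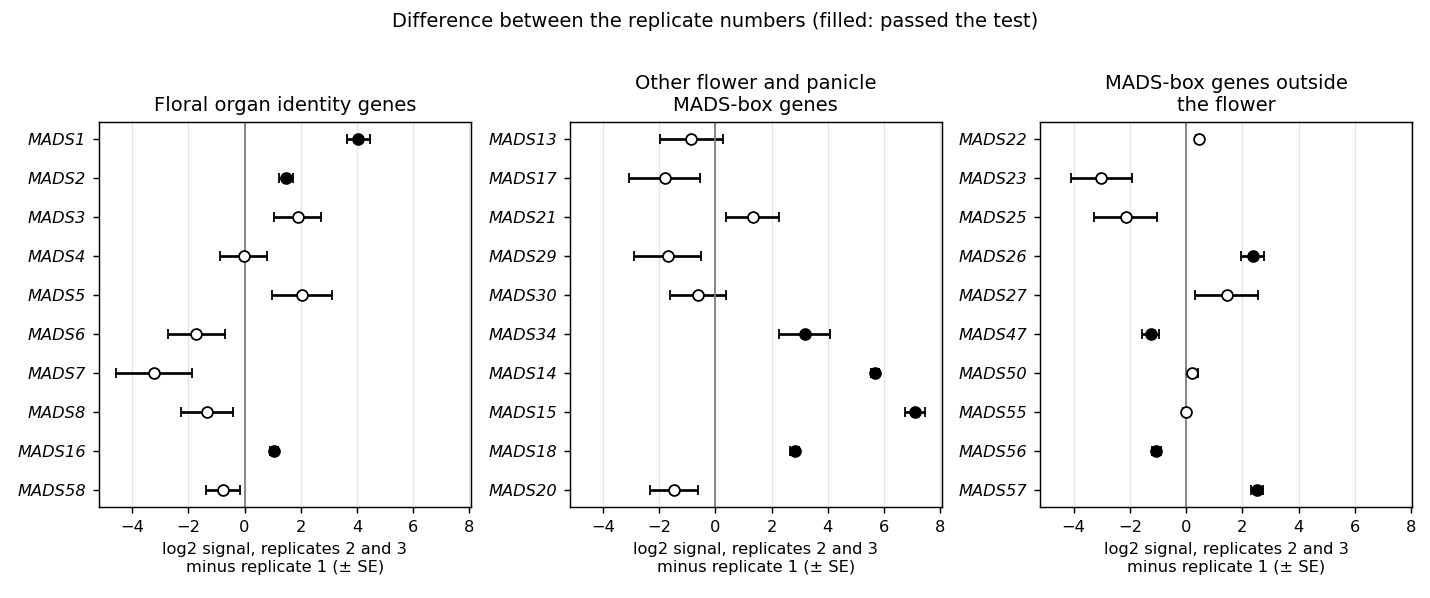
Log2 difference of replicates 2 and 3 from replicate 1 (horizontal axis), with the standard error of the limma fit. The left panel holds the 10 genes, the middle panel other flower and panicle MADS-box genes, and the right panel MADS-box genes outside the flower. Filled symbols mark genes that passed the test. In the left panel these are 3 genes, at 4.05, 1.46 and 1.06, and the other 7 have wider errors or differences near 0.

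The remaining 7 genes did not pass. *MADS3* averaged 49.1 in replicates 2 and 3 and 13.3 in replicate 1, a log2 difference of 1.89 ± 0.84 (adjusted p = 0.151, limma). Its arrays did not overlap between the replicates, but it passed when the *sd37* array of replicate 1 was left out (3.55, adjusted p = 0.0381) and when each array was scaled to one median (2.56, adjusted p = 0.0468). *MADS7* had a log2 difference of -3.24 ± 1.35 (adjusted p = 0.126) with all arrays and passed as lower without the wild type array of replicate 2 (-4.29, adjusted p = 0.0328), though all of its signals lay under the array medians. The other values were 2.05 ± 1.07 for *MADS5*, -0.026 ± 0.84 for *MADS4*, -1.72 ± 1.003 for *MADS6*, -1.32 ± 0.92 for *MADS8* and -0.77 ± 0.60 for *MADS58*, with adjusted p between 0.213 and 0.986. The sign of the *MADS4* value turned with the scaling and with the floor on low signals. Arrays of replicates 2 and 3 lay wholly above those of replicate 1 in 4 of 10 genes (*MADS1*, *MADS2*, *MADS3* and *MADS16*), beside 17.6% of all probe sets, and wholly below them in 2 of 10 (*MADS7* and *MADS58*), beside 27.4%.

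Between the genotypes, the comparison for which the series was made, none of the 10 genes passed the test. By the call rule given above, 0 of the 57258 probe sets (0%) passed in limma. Without adjustment of the p-values 1249 (2.18%) would have, and no member was among them. With 3 arrays against 3, an exact two-sided permutation test of a single gene cannot give a p below 0.1. The median log2 difference of the members was -0.20, with 3 higher and 7 lower in *sd37*, beside a median of 0.024 and 52.5% higher over all probe sets. In no member did the 3 arrays of one genotype lie wholly above those of the other, a pattern seen in 6.07% of all probe sets.

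For the 3 genes with signal, the genotype difference was smaller than its standard error in the fit without a replicate term. *MADS16* averaged 1241 in *sd37* and 1382 in wild type, a log2 difference of -0.16 with a 95% confidence interval of -1.11 to 0.80. *MADS2* averaged 304 in *sd37* and 362 in wild type, with an interval of -1.58 to 1.08 around -0.25. *MADS1* averaged 348 in *sd37* and 254 in wild type, with an interval of -2.83 to 3.74 around 0.46. The replicate 1 arrays enter the spread of each genotype in these intervals. With replicate 1 as a term in the fit they were -0.46 to 0.15 for *MADS16*, -0.77 to 0.28 for *MADS2* and -0.41 to 1.32 for *MADS1*, with adjusted p of 0.881 to 0.896 in limma; each difference was then larger than its standard error (0.14, 0.23 and 0.38). In replicates 2 and 3 alone the log2 difference was -0.013 ± 0.13 for *MADS16*, -0.57 ± 0.17 for *MADS2* (unadjusted p = 0.0138, adjusted p = 0.518, limma) and -0.22 ± 0.20 for *MADS1*, so the sign of the *MADS1* difference turned without replicate 1. None of the 10 genes passed with the replicate number as a block, with replicate 1 as a term or in replicates 2 and 3 alone, where 0.0105%, 0.0175% and 0.0297% of all probe sets did.

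The 7 low genes did not pass either. The log2 difference of *sd37* from wild type was -1.68 ± 1.24 (SE) for *MADS5*, -1.39 ± 0.95 for *MADS8*, -1.35 ± 0.83 for *MADS4*, 1.35 ± 1.08 for *MADS6*, -0.71 ± 1.66 for *MADS7*, 0.37 ± 1.04 for *MADS3* and -0.055 ± 0.65 for *MADS58*. The smallest unadjusted p among the 10 genes was 0.145, for *MADS4*, which averaged 23.7 in *sd37* and 60.2 in wild type. Its 3 pairs of equal replicate number differed by -2.53, -2.43 and 0.91. None of these 7 genes reached a signal of 100 on any array, and their standard errors ran from 0.65 to 1.66, beside 1.42 for *MADS1*.

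**Figure D3:**
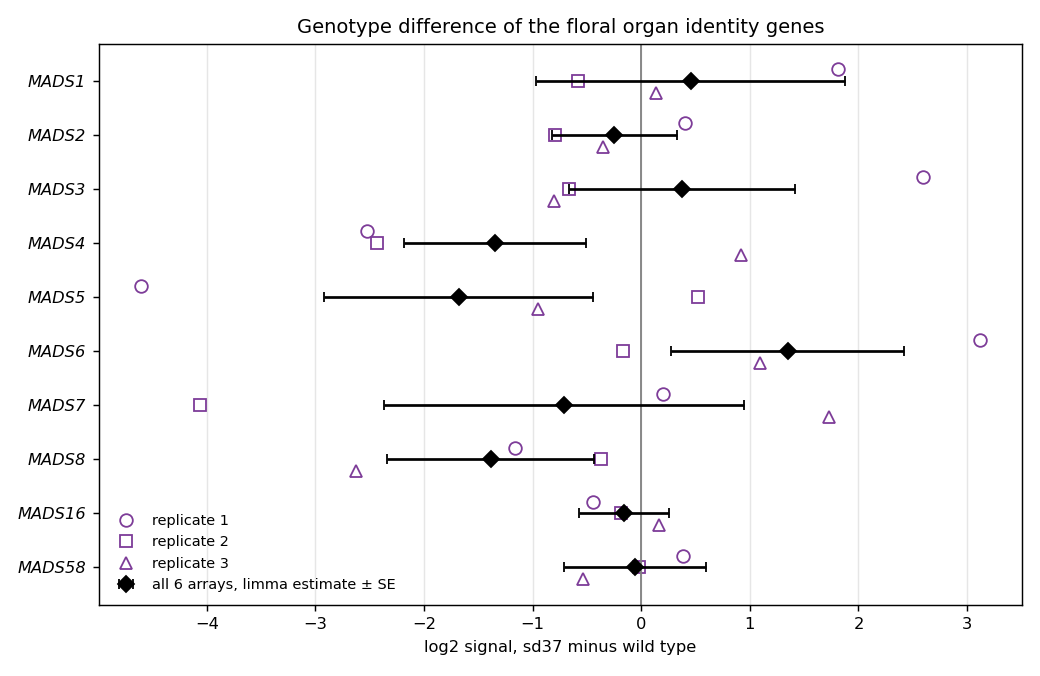
Log2 difference of *sd37* from wild type for each of the 10 genes (horizontal axis), with black diamonds and bars for the limma estimate and its standard error and open purple symbols for the pairs of equal replicate number. The open symbols of every gene except *MADS8* lie on both sides of 0, and those of *MADS4* run between -2.53 and 0.91.

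The genotype difference was also set against the replicate number. The interaction (the difference of *sd37* from wild type in replicates 2 and 3, minus that in replicate 1) passed in none of the 10 genes, and in 0 of 57258 probe sets (0%). Before adjustment the p was under 0.05 in 4 of 10 genes with at least that fold, beside 7.71% of all probe sets. These were *MADS1*, at -2.03 ± 0.40 on the log2 scale, *MADS2* at -0.98 ± 0.32, *MADS3* at -3.33 ± 1.13 and *MADS5* at 4.39 ± 1.46, with adjusted p of 0.573 to 0.582 in limma. In replicate 1 the *MADS1* signal was 85.6 in *sd37* and 24.4 in wild type, and that of *MADS3* was 32.6 in *sd37* and 5.4 in wild type. That of *MADS5* was 1.8 in *sd37* and 43.9 in wild type. Each of these values was under the reporter limit of its array. Replicate 1 has a single array of each genotype, so the spread in this test came from replicates 2 and 3. For *MADS16* the interaction was 0.43 ± 0.23 (adjusted p = 0.672).

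Other MADS-box genes of the flower and panicle were read in the same way. Of the 12 genes listed, 10 were measured, and 4 were called higher in replicates 2 and 3 while none was called lower, beside 9.85% and 9.38% of all probe sets. *MADS14*, an AP1/FUL-like gene of the inflorescence meristem, gave 90.9, 4065.9 and 4019.8 in *sd37*, against 74.7, 4362.3 and 4620.1 in wild type. The difference of replicates 2 and 3 from replicate 1 was 5.69 ± 0.14 on the log2 scale (adjusted p = 5.14e-07, limma). All 4 probe sets of *MADS14* were under the reporter limit in replicate 1, and against that limit they were at least 48.8-fold (the one shown), 83.0-fold, 155-fold and 34.2-fold higher in replicates 2 and 3. *MADS15*, its close relative, gave 7.8, 1172.2 and 2125.7 in *sd37*, against 25.4, 3152.5 and 1751.6 in wild type. Its log2 difference between the replicates was 7.10 ± 0.35 (adjusted p = 4.89e-06, limma), or at least 22.1-fold against the reporter limit. Further probe sets of *MADS15* were at least 13.9-fold and 8.10-fold higher against that limit. The remaining one, with signals of 1.0 to 50.8, lacked the difference (1.02 ± 1.27, adjusted p = 0.607, limma). On the probe sets shown, both genes were under the reporter limit in replicate 1 and high on the 4 other arrays, in either genotype. *MADS14* and *MADS15* are similar in sequence and some of their probe sets carry suffixes for shared probes, so their signals may not be independent.

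*MADS18*, the third AP1/FUL-like gene, named here after its values were seen, gave 1227.2, 10178.3 and 12102.0 in *sd37*, against 1899.3, 10520.9 and 10725.6 in wild type. It was thus well measured in replicate 1, and higher by 2.83 ± 0.16 on the log2 scale in replicates 2 and 3 (adjusted p = 8.72e-06, limma). *MADS34* (*PAP2*), a SEPALLATA-type gene of the inflorescence and spikelet meristem, gave 5.9, 14.3 and 35.1 in *sd37*, against 4.3, 111.9 and 78.0 in wild type. Its replicate difference was 3.18 ± 0.91 (adjusted p = 0.0365), and the call was lost without *sd37* replicate 3 (0.0917), without wild type replicate 1 (0.261), 2 (0.122) or 3 (0.107), and with a floor of 16 on the signals (0.225). Both of its replicate 1 signals and its average of 45.8 in replicates 2 and 3 were under the reporter limits of replicate 1, so no fold is given. In the reference annotation of rice (assembly ASM3414082v1) no protein-coding gene lies between *MADS14* and *MADS34*, nor between *MADS1* and *DL*. *DL* (*DROOPING LEAF*), a YABBY gene of carpel identity and the leaf midrib, gave 151.7, 36.2 and 11.8 in *sd37* and 73.6, 28.6 and 5.3 in wild type, with both replicate 1 arrays highest, where those of *MADS1* were lowest (replicate difference -2.73 ± 0.89, adjusted p = 0.0591).

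Of the same list, 6 of 10 genes were under the array median on all 6 arrays, among them *MADS13* and *MADS21*, which belong to the D class of ovule identity. None passed the genotype test. *MADS29*, a gene of the developing seed, had a log2 difference of *sd37* from wild type of 1.95 ± 1.24, and *MADS34* one of -1.22 ± 1.37. Medians over the 10 genes were 0.11 for the genotype difference and 0.36 for the replicate difference, against 0.52 for the replicate difference of the 10 organ identity genes.

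**Figure D4:**
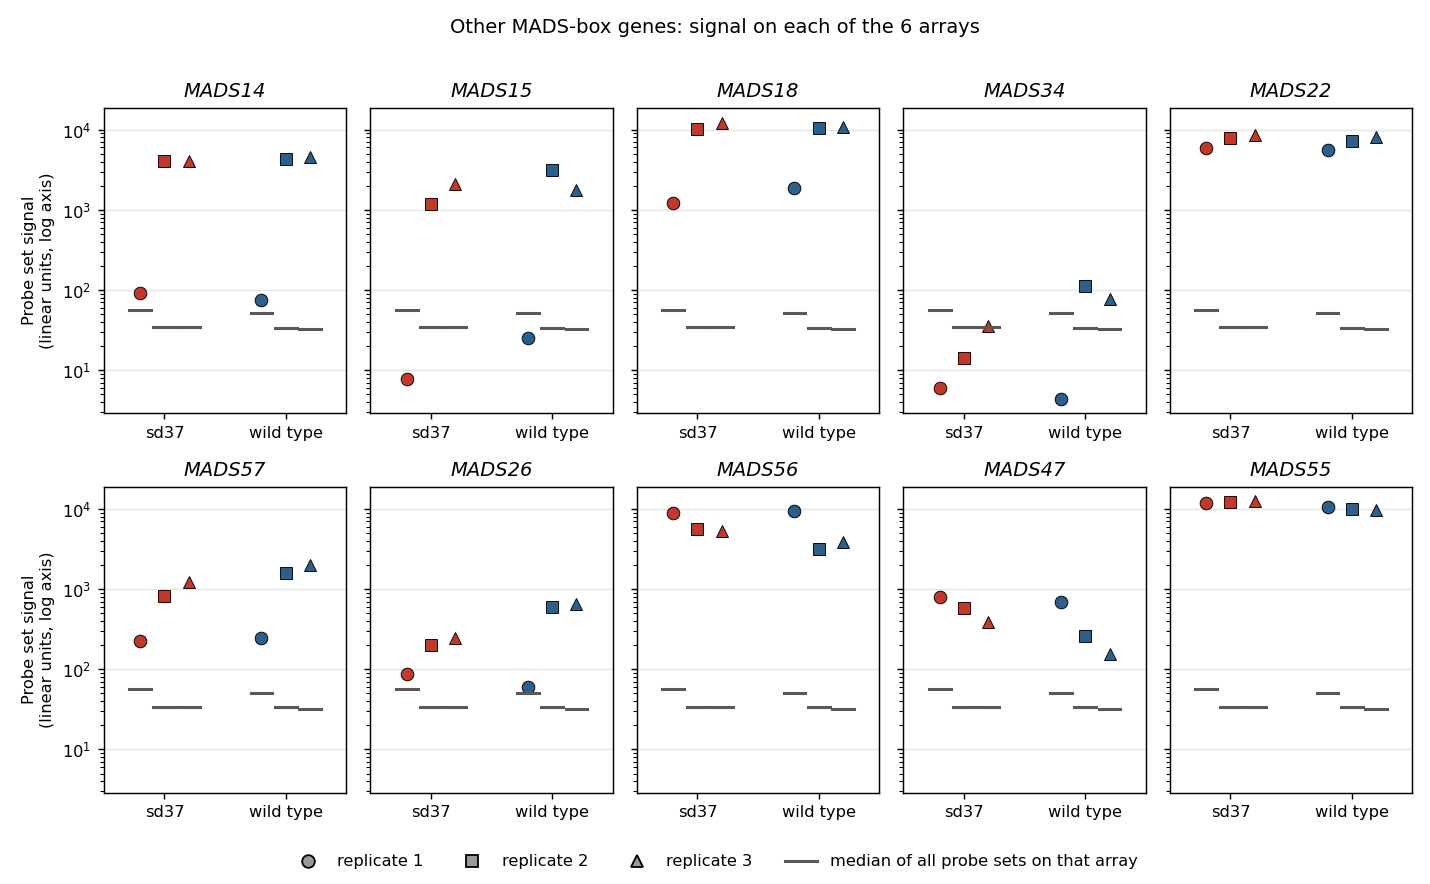
Signal of 10 other MADS-box genes (vertical log axis, arbitrary units) on the *sd37* arrays, left, and the wild type arrays, right, with circles, squares and triangles for replicates 1, 2 and 3 and grey bars for the array medians; the panel holds the 8 genes that passed the replicate test plus *MADS22* and *MADS55*, and was chosen after the values were seen. *MADS14* and *MADS15* are low in replicate 1 and high in the other replicates of both genotypes, and *MADS55* lies between 9867.2 and 12681.4 throughout.

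MADS-box genes with known roles outside the flower were called in both directions. Of 27 names 10 were measured, with 2 higher and 2 lower in replicates 2 and 3, beside the 9.85% and 9.38% of all probe sets. *MADS57*, known for its part in tillering, gave 224.5, 822.7 and 1239.4 in *sd37*, against 243.6, 1572.2 and 1978.3 in wild type, a log2 difference of 2.51 ± 0.22 between the replicates (adjusted p = 8.33e-05, limma). *MADS26*, known for stress responses and named here after its values were seen, was higher by 2.36 ± 0.40 (adjusted p = 0.0030). *MADS56*, a SOC1-like gene of flowering time, gave 9051.4, 5649.3 and 5262.2 in *sd37*, against 9334.9, 3215.6 and 3834.5 in wild type, a log2 difference of -1.07 ± 0.16 (adjusted p = 0.00142). *MADS47*, an SVP-like gene, was lower by a log2 difference of -1.26 ± 0.31 (adjusted p = 0.0182), and neither it (0.213) nor *MADS56* (0.141) passed when each array was scaled to one median. The call of *MADS47* was also lost without *sd37* replicate 3 (0.0556) and without wild type replicate 1 (0.283).

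The SVP-like genes *MADS22* and *MADS55*, regulators of meristem identity and of brassinosteroid responses, had high signals on all 6 arrays, from 5980.1 to 8526.3 in *sd37* and 5637.8 to 8007.9 in wild type for *MADS22*. *MADS55* gave 11926.0, 12339.2 and 12681.4 in *sd37* and 10553.7, 9918.8 and 9867.2 in wild type. Its *sd37* arrays all lay above its wild type arrays, as in 3.2% of all probe sets, with a log2 difference of 0.28 ± 0.18 (adjusted p = 1) or ± 0.092 with the replicate block (unadjusted p = 0.0143, adjusted p = 0.739, limma), under the 1.5-fold limit. By genotype none of these 10 genes passed, and the smallest p belonged to *MADS25* (2.31 ± 1.24), whose signals never exceeded 27.1, and *MADS47* (0.89 ± 0.55). The list's medians were 0.36 for the genotype and 0.09 for the replicate difference.

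Spikelet and floral meristem regulators outside the MADS-box family were also read. Of 28 names 10 were measured, and 0 were called higher and 2 lower in replicates 2 and 3, beside 9.85% and 9.38% of all probe sets. The medians of the 10 genes were 0.020 for the genotype and -0.79 for the replicate difference, against 0.024 and -0.39 over all probe sets. Genes were matched by name alone, so some, such as those matched to *IDS1* and *MFS1*, may be other genes that share a name. The counts and medians of this list include them. The gene matched to the name *IDS1* gave 12861.6, 4849.7 and 4810.3 in *sd37*, against 9558.7, 3434.9 and 3195.6 in wild type (log2 difference of the replicates -1.47 ± 0.10, adjusted p = 2.05e-05, limma). That match rests on the name alone, and the gene may not be the AP2-type spikelet gene called *IDS1*. *YAB1*, a YABBY gene, had a replicate difference of -2.18 ± 0.33 (adjusted p = 0.00172), lost as a call without wild type replicate 1 (0.0614), and its second probe set, near background, gave -0.41 (adjusted p = 0.761). By genotype, *LAX1*, a bHLH gene of axillary meristems, gave 103.7, 81.0 and 33.1 in *sd37* and 17.7, 28.7 and 23.1 in wild type (log2 difference 1.52 ± 0.68, unadjusted p = 0.057, adjusted p = 1). *YABBY5* gave 4.0, 3.8 and 16.0 in *sd37* and 21.4, 25.8 and 17.8 in wild type (-1.78 ± 0.93, adjusted p = 1). The genotypes did not overlap in either gene, as in 3.2% of all probe sets for the higher and 2.87% for the lower direction.

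Outside these lists, the 5 genes whose arrays followed the members most closely were sought among 1984 genes with a symbol and a signal of at least 100. Likeness was Pearson's r over the 6 arrays to the mean standardized log2 signal of the 7 members not near background. The 5 genes were *Alpha-ETF* (r = 0.993), *JMJ705* (0.990), *OsPPT3* (0.989), *NTRB* (0.987) and *OsVDAC6* (0.986). *Alpha-ETF* gave 778.4, 1449.5 and 1695.1 in *sd37*, against 847.1, 2111.7 and 2040.9 in wild type. Both replicate 1 arrays were its lowest, the split that the 6 points of each of these correlations share. These r values describe 6 arrays and carry no test.

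Marker lists of other tissues were set against the same split, and their part in the member signals was not tested. Their counts and medians stand beside 9.85% called higher, 9.38% called lower and a median log2 difference of -0.39 over all probe sets. The summed signal of the 10 members was 2695 to 3566 in replicates 2 and 3 and 1180 to 1379 in replicate 1, most of it from *MADS16*, *MADS1* and *MADS2*. Of 10 anther and pollen genes measured, 5 were called higher and none lower in replicates 2 and 3, with a median log2 difference of 1.18 and sums of 1701 to 2043 in replicates 2 and 3 and 682 to 778 in replicate 1. The 5 were *GAMYB*, *MSP1*, *TDL1A*, *MEL1* and *CYP703A3*, named after their values were seen. The tapetum and pollen wall genes *EAT1*, *RTS*, *C6* and *CYP703A3* were under the array median on all 6 arrays. *GAMYB*, a gibberellin-response gene also known from germinating seed, gave 794.5 to 1031.8 in replicates 2 and 3 and 330.3 to 471.3 in replicate 1.

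Of 4 photosynthesis markers measured, 3 were called lower in replicates 2 and 3, beside 9.38% of all probe sets. The sums of the 4 were 81433 to 105422 in those replicates and 185953 to 217741 in replicate 1 (median log2 difference -0.78). *CAB2R*, a chlorophyll a/b-binding protein gene, gave 24859.9 and 25810.6 in *sd37* replicates 2 and 3 and 11577.3 and 14831.8 in those of wild type, against 82318.1 in *sd37* and 76050.9 in wild type for replicate 1. For *RBCS* and *RCA*, the other pair, the sign turned positive after quantile normalization. *CAB2R*, *RBCS* and *RCA* were at 11577.3 or more on every array. The fourth, *RBCS1*, gave 27.0 to 28.9 in *sd37* and 10.9 to 33.3 in wild type and was under the median of every array. Of 8 root markers 2 were called higher, beside 9.85% of all probe sets, and none lower (median -0.21). The root sums were 3633 to 7162 in replicates 2 and 3 and 2626 to 2740 in replicate 1. Of 9 grain markers 1 was called higher and 2 lower (median -0.71), beside the same 9.85% and 9.38%. The grain sums were 9260 to 10688 in replicates 2 and 3 and 9778 to 10728 in replicate 1. Of 9 shoot meristem markers none was called higher and 1, the cytokinin-activating enzyme gene *LOG*, was called lower (median -1.36), beside those shares. The KNOX gene *OSH1*, the defining meristem marker, gave 0.9 to 14.0 in replicates 2 and 3 and 28.4 to 29.5 in replicate 1, under the median of every array. The shoot meristem sum was 3054 to 3776 in replicates 2 and 3 and 8726 to 10273 in replicate 1, most of it from *LOG*.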

How the data were processed

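Per the study's methods, a service labelled, hybridized, scanned, pre-processed and normalized the arrays, and the deposited table holds 1 probe set intensity per array on a linear scale; which algorithm made the signals is not stated there. The 123 array control probe sets were left out. Intensities under 1 were set to 1 and converted to log2 values without further normalization. Probe sets were named through the platform annotation and updated with RefSeq gene tables (assembly ASM3414082v1), ignoring a leading Os. The synonym MADS2 is shared with the gene of *MADS18*, and a second synonym settled which gene was taken. A probe set annotated to several genes names none.

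limma 3.58.1 (R 4.3.3; lmFit, eBayes with an intensity trend) tested *sd37* minus wild type, replicates 2 and 3 minus replicate 1 with genotype in the fit, and their interaction, over 57258 probe sets with Benjamini-Hochberg adjustment, a threshold of 0.05 and 1.5-fold. In place of the analysis of variance named in the methods, which was an alternative, limma was the main test. Scripts were tested on simulated data. Figures used matplotlib 3.10.9 with Python 3.11.15.

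Samples were grouped by the genotype and replicate number of their labels. Deviations from the genotype means correlated at 0.394, 0.134 and 0.16 between *sd37* and wild type arrays of replicates 1, 2 and 3. *sd37* replicate 3 and wild type replicate 2 correlated at 0.164, and *sd37* replicate 2 and wild type replicate 3 at 0.130. These values set replicate 1 apart but do not pair replicates 2 and 3 by number. The replicate block and the pairs of equal number rest on the labels alone. Whether plants were raised apart is known only from the word biological in the labels.

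The members, the gene lists and the replicate split were chosen with earlier results of these data known. Named genes were all 10 members, for each other MADS-box or spikelet list the 2 genes of smallest p in the replicate and in the genotype comparison, and the 5 genes of most like pattern. Other genes named in the text, among them *MADS18*, *MADS26*, *MADS22*, *MADS55* and *DL*, were named after their values were seen. *RFL* and *APO2* are names of one gene, which stands in the spikelet and the shoot meristem lists. Lists also covered anther and pollen, photosynthesis, root, grain and shoot meristem genes. Alternatives were a replicate block, a replicate 1 term, replicates 2 and 3 alone, each array left out, quantile or median scaling, a floor or an offset of 16, a filter at the median of the mean signals, no variance trend, no genotype term, an ordinary analysis of variance, and all probe sets of a gene. The limit for a lower bound on a fold was the 95th percentile of the reporter probe sets of the array.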

Additional observations from a re-analysis of the deposited data

Results flagged for a closer look

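In *MADS2* the sign of the genotype difference was opposite between replicate numbers: *sd37* was above wild type in replicate 1 (0.40 on the log2 scale) and below it in replicates 2 (-0.79) and 3 (-0.35), an interaction of -0.98 that did not pass in limma (adjusted p = 0.579). In *MADS3* the same pattern was found, with 2.59 in replicate 1, -0.66 in replicate 2 and -0.81 in replicate 3, and an interaction of -3.33 (adjusted p = 0.582). In *MADS58* the differences were 0.38, -0.018 and -0.53 in replicates 1, 2 and 3, and the interaction of -0.66 was within its error of 1.09 (adjusted p = 0.897).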

How the results depend on the processing

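No setting brought a member past the genotype test. The number of probe sets called between genotypes was 0 in the fit without a replicate term, 6 with the replicate block, 10 with replicate 1 as a term and 17 in replicates 2 and 3 alone, none of them a member; it stayed 0 when any 1 array was left out and in the ordinary analysis of variance, where 1401 probe sets passed unadjusted against 1249 in limma. The block changed no member's call. The replicate comparison called 11012 probe sets, 4519 without the variance trend and 7059 to 10916 with 1 array left out, the lowest without wild type replicate 1. Its 5639 higher and 5373 lower calls became 5955 and 4361 after quantile normalization and 13354 and 2210 when each array was scaled to one median, which moved the median of all probe sets from -0.39 to 0.011 and 0.28. Members called were 3, or 1 without the trend, and 3 to 4 with 1 array left out. The interaction called no member, or 1 with a floor of 16 (*MADS6*, -1.19, adjusted p = 3.2e-05 in limma), where its 4 arrays of replicates 2 and 3 all sat at the floor; without a replicate 1 array it could not be fitted. Genes near background were 3, or 7 with a limit of 100, 6 by their mean and 5 in replicate 1 alone.

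Signs turned in low or undecided genes. In the genotype difference, replicates 2 and 3 alone gave -0.22 for *MADS1*, -0.73 for *MADS3* and 0.32 for *YAB1*, and a floor of 16 gave -0.15 for *MADS3*. With 1 array left out it ran from -1.23 to 1.47 for *MADS1*, -0.90 to 0.12 for *MADS2*, -0.81 to 1.03 for *MADS3*, -2.25 to 0.27 for *MADS7*, -0.44 to 0.27 for *MADS16*, -0.42 to 0.34 for *MADS58*, -1.98 to 1.82 for *MADS14*, -3.13 to 1.603 for *MADS15*, -1.53 to 0.15 for *MADS57* and -0.58 to 0.88 for *YAB1*. In the replicate difference, *MADS4* was 0.55 after quantile normalization, 0.65 after median scaling and 0.062 with a floor of 16, and *LAX1* 0.30 and 0.44 under the 2 scalings; with 1 array left out it ran from -0.91 to 0.86 for *MADS4*, -0.15 to 4.25 for *MADS5*, -1.002 to 0.54 for *LAX1* and -0.031 to 0.96 for *YABBY5*, and from 3.04 to 5.07 for *MADS1*, 0.98 to 1.95 for *MADS2* and 0.85 to 1.28 for *MADS16*. The interaction of *MADS8* was 0.83 with a floor and 0.17 with an offset of 16, and with 1 array left out it ran from -1.25 to 0.58, that of *MADS7* from -3.59 to 0.86. The cause was not tested. A single array left in a group was assumed to vary like the others. The filter kept 6 of the 10 members.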
